A study of Mus musculus with 18 samples.

Results

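The miRNA hairpin miR-671 gives 2 mature strands, mmu-miR-671-5p and mmu-miR-671-3p (written without mmu from here on), and both were followed here through every group of a small-RNA sequencing study of mouse brain. They were picked by name, 2 of the 1841 mature miRNAs listed, and both had reads in all 18 libraries. The study made 3 libraries for each of 6 groups, all from male C57BL/6J mice aged 1 month. Cerebellum came from wild-type mice (WT), from mice that lack the long noncoding RNA Cyrano (CyrKO), from mice with an 18-nt deletion in the circular RNA Cdr1as that is named in the labels for miR-671 (Cdr1as671), and from mice that carry both mutations (CyrKOCdr1as671, the double mutant). Hippocampus came from WT and CyrKO mice. How the Cyrano allele was made, and whether libraries of a group came from separate animals, is not given in the labels, so p-values measure the spread between these libraries.

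A miRNA hairpin is cut into a duplex, and usually 1 strand, the guide, is kept by an Argonaute protein while the other strand is discarded. A guide pairs with RNAs through its seed near the 5′ end. A target that pairs much more fully can be sliced, and some extensively paired targets instead cause the guide itself to be destroyed, which changes the guide and not the other strand of its hairpin. miR-671-5p is known for slicing Cdr1as, a neuronal circular RNA with many sites for miR-7, and Cyrano is known for causing the destruction of miR-7. The libraries measure small RNAs, so Cyrano and Cdr1as themselves were not measured, and in bulk tissue fewer cells and less RNA per cell cannot be told apart.

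The mature strands, from RefSeq on GRCm38.p6, are printed with their seeds (bases 2 to 8) in capitals, because the seeds set which RNAs each strand can recognise. Both strands matched the RefSeq table by name.
miR-671-5p: aGGAAGCCcuggaggggcuggag
miR-671-3p: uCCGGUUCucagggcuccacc
The 5p strand has 23 nt at chr5:24592132-24592154 and the 3p strand 21 nt at chr5:24592171-24592191, both on the plus strand. Their G and C content, 69.6% and 66.7%, lies above the median of 52.2% for the 1679 mature mouse miRNAs of the table. None of those shares either seed. The hairpin, shown because both strands are read from it (capitals mark the mature strands), covers chr5:24592114-24592211.
Mir671 hairpin: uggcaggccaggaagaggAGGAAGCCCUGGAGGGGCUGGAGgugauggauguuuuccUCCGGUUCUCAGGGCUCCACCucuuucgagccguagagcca
In the GENCODE vM21 annotation of GRCm38 this stretch lies inside an exon and the coding sequence (24591069 to 24592361) of Chpf2, a chondroitin polymerizing factor gene, on the same strand. An exon of Smarcd3, a chromatin remodelling gene, covers it on the opposite strand.

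Every annotated transcript was searched for its best ungapped match to miR-671-5p. The Cdr1as site is the best match within C230004F18Rik, a gene picked by name and not by the search. It lies in an exon of that gene (chrX:61183248-61186174, plus strand), at chrX:61186029-61186051. It is shown because the Cdr1as671 mutation is named for miR-671, and its capitals mark bases in Watson-Crick pairing with the miRNA.
Cdr1as site: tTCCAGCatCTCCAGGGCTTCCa
Counted from the 5′ end of miR-671-5p, 19 of the 23 positions form Watson-Crick pairs, including all 7 of the seed. Positions 2 to 14 form an unbroken run of 13 pairs, positions 15 and 23 are G-U wobbles, and positions 1 and 16 are unpaired. A best match of at least 19 pairs was found in 34 of 55320 annotated genes (0.0615%). The single full match was Smarcd3, which is antisense to the hairpin. The best match in Cyrano had 14 pairs, equal to the median over all genes. A match describes letters and is not a measured site, and the labels do not say which 18 bases were deleted.

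Libraries held 8591172 to 15305829 miRNA reads, with RNA integrity numbers of 8.5 to 9.5. miR-671-5p had 1254 to 7641 reads per library and miR-671-3p 147 to 491, for a counting error of 1.14% to 2.82% and 4.51% to 8.25%. Levels are given as CPM, the reads of a miRNA over all miRNA reads of its library on the usual CPM scale. The forebrain-rich list separated the tissues, at 26265 to 29381 CPM over its 3 measured members in hippocampus and 5535 to 7961 CPM in cerebellum, and the 1 measured cerebellum-rich miRNA stood at 790.5 to 1232 CPM in cerebellum and 3.97 to 6.75 CPM in hippocampus. Summed levels of the 3 red blood cell miRNAs set libraries 1 and 2 of Cdr1as671 apart, at 783 and 603 CPM, from 5405 to 32949 CPM in the other 10 cerebellum libraries. The 7 miRNAs of choroid plexus and ciliated cells varied most within hippocampus, from 3675 to 16032.5 CPM in WT and from 5890 to 16997 CPM in CyrKO. In cerebellum they ran from 7428 to 11523 CPM. The part of this spread in the results was not tested. All members of the marker lists that were measured had reads in every library.

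The 5p strand was the more abundant strand of the hairpin in all 18 libraries, and its level formed 4 steps. WT cerebellum was lowest, with 111, 129 and 127 CPM in libraries 1, 2 and 3. The 3 cerebellum mutants came next and overlapped, with 242, 217 and 217 CPM in CyrKO, 233, 201 and 223 CPM in Cdr1as671, and 220, 232 and 231 CPM in the double mutant. WT hippocampus had 370, 417 and 389 CPM, and CyrKO hippocampus had 569, 568 and 568 CPM. Between these 4 steps no library overlapped with one of another step in CPM on library totals. With library sizes scaled by TMM the cerebellum mutants and WT hippocampus stood closer. The double mutant was then at 273 ± 12.4 CPM and WT hippocampus at 301 ± 16.8 CPM (SD, n = 3 each). The SD of 0.647 CPM in CyrKO hippocampus, 0.114% of the mean, was below the counting error of a single library there, so it understates the error of that mean.

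The 3p strand had a different order. WT cerebellum had 21.0, 20.1 and 22.6 CPM, CyrKO cerebellum 20.2, 18.8 and 18.8 CPM, Cdr1as671 23.4, 22.3 and 16.5 CPM, and the double mutant 15.7, 18.0 and 16.7 CPM. The hippocampus groups stood above all cerebellum libraries, with 32.5, 31.7 and 32.1 CPM in WT and 36.6, 29.6 and 34.8 CPM in CyrKO. Within each tissue neighbouring groups overlapped, except that all double-mutant libraries were below all WT and all CyrKO cerebellum libraries. The gap between the tissues depends on scaling. With library sizes scaled by TMM the mean 3p level was 24.1 CPM in WT cerebellum, 24.7 CPM in WT hippocampus and 25.4 CPM in CyrKO hippocampus. In rank, the 5p strand stood between places 140 and 221 of all miRNAs in a library and the 3p strand between places 334 and 373.

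**Figure D1:**
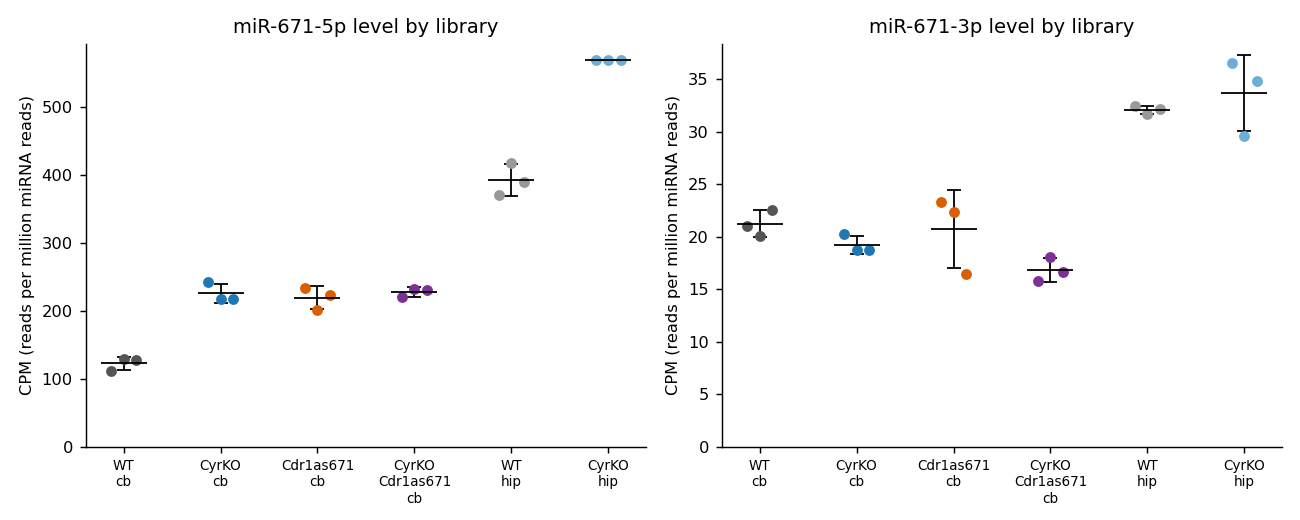
Levels of miR-671-5p (left) and miR-671-3p (right) in CPM, on axes that start at 0, by group (cb, cerebellum; hip, hippocampus). Points are libraries 1 to 3 of each group and bars are the mean ± SD (n = 3); the 5p strand is lowest in WT cerebellum at 122 CPM and highest in CyrKO hippocampus at 568 CPM, while the 3p strand stays between 15.7 and 23.4 CPM in cerebellum.

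The share of the hairpin's reads that came from the 5p strand was 85.2% ± 1.23 in WT cerebellum and 92.1% ± 0.128 in CyrKO cerebellum (SD, n = 3 each). It was 91.3% ± 1.61 in Cdr1as671, 93.1% ± 0.293 in the double mutant, 92.4% ± 0.507 in WT hippocampus and 94.4% ± 0.565 in CyrKO hippocampus. In single libraries the share ran from 84.1% (exact Clopper-Pearson 95% interval 82.1% to 85.9%) in WT cerebellum library 1 to 95.05% (94.4% to 95.6%) in CyrKO hippocampus library 2. WT cerebellum thus held the 3 lowest shares of the 18 libraries. The intervals cover counting error only.

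**Figure D2:**
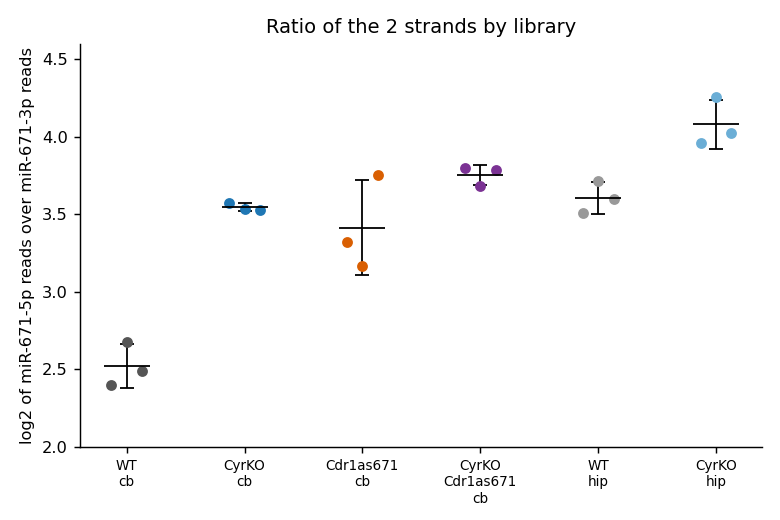
Log2 of miR-671-5p reads over miR-671-3p reads (vertical axis, from 2 to 4.6) in each library, by group (cb, cerebellum; hip, hippocampus), with mean ± SD (n = 3). The WT cerebellum libraries, at 2.40 to 2.68, lie below every other library, and Cdr1as671 library 3, at 3.76, lies above libraries 1 and 2 of its group.

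Loss of Cyrano was compared with WT in cerebellum to ask which miRNAs depend on it. miR-671-5p rose 1.85-fold in edgeR's quasi-likelihood test, a log2 change of 0.89 (SE 0.10, adjusted p = 0.000376 over 668 miRNAs), and all 3 CyrKO libraries were above all WT libraries. For the 3p strand the value was −0.14 (SE 0.12, adjusted p = 0.999), and the groups overlapped. So 1 of the 2 strands was called, where 0.898% of all tested miRNAs were called. The sum of both strands went from 144 ± 9.69 to 245 ± 14.9 CPM, and the added 103 CPM of the 5p strand stood against a 3p mean that was lower by 1.99 CPM. The median over all tested miRNAs was a log2 change of −0.01.

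The strand ratio was tested over all hairpins with enough reads on both strands, by limma on log2 of 5p over 3p reads, and does not depend on how libraries are scaled. In CyrKO cerebellum the log2 ratio of miR-671 was 3.58, 3.53 and 3.53 in libraries 1, 2 and 3, against 2.40, 2.68 and 2.49 in WT. The change of 1.02 (SE 0.13, adjusted p = 0.00266 over 172 hairpins) passed, where 2.91% of hairpins passed. It was the second highest change of the ratio in these hairpins, after miR-7b at 5.57. The hairpins that passed in the other direction were miR-409 at −1.49, miR-411 at −1.05 and miR-379 at −0.88. An exact two-sided permutation test of the 3 against 3 libraries gave p = 0.1, the smallest this design allows (adjusted p = 0.114 over 8 such tests).

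In hippocampus the same loss was compared with a WT level of miR-671-5p that was already higher, 392 ± 23.5 CPM (SD, n = 3). The 5p strand rose 1.43-fold, with a log2 change of 0.52 (SE 0.07, edgeR adjusted p = 0.00386 over 702 miRNAs), and the groups did not overlap. The 3p strand stood at 0.05 (SE 0.10, adjusted p = 0.948). Again 1 of 2 strands was called, against 0.570% of all tested miRNAs. On library totals the mean level of the 5p strand was higher by 176 CPM in CyrKO hippocampus, and by 103 CPM in CyrKO cerebellum. These additions depend on how the tissues are scaled. With library sizes scaled by TMM the mean went from 301 to 429 CPM in hippocampus and from 139 to 258 CPM in cerebellum. The log2 ratio of the strands was 3.51, 3.72 and 3.60 in WT and 3.96, 4.26 and 4.03 in CyrKO, without overlap, but its change of 0.47 (SE 0.11) did not pass in limma (adjusted p = 0.151 over 194 hairpins, of which 1.03% passed). The hairpins that did were miR-7b at 2.82 and miR-409 at −0.90. The exact permutation p was 0.1.

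**Figure D3:**
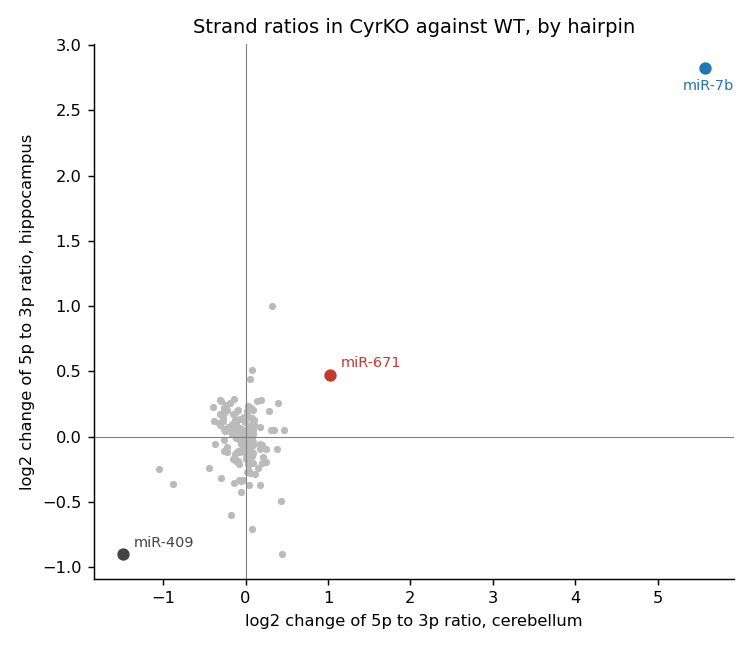
Log2 change of the 5p to 3p ratio in CyrKO against WT, in cerebellum (horizontal axis) and hippocampus (vertical axis), for the 167 hairpins tested in both tissues (grey points), with 3 hairpins coloured. miR-671 lies at 1.02 and 0.47, below miR-7b at 5.57 and 2.82, and miR-409 lies at −1.49 and −0.90.

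The difference between the tissues in the response to Cyrano loss did not pass for either strand. For miR-671-5p the log2 change in hippocampus minus that in cerebellum was −0.37 (SE 0.13, unadjusted p = 0.011, edgeR adjusted p = 0.765 over 746 miRNAs), and that of the 3p strand was 0.18 (SE 0.16, adjusted p = 0.968). Neither strand was among the 0.402% called. Log2 plus and minus 1.96 SE spans −0.63 to −0.12 for the 5p strand, so the test over all miRNAs did not call the difference and does not show that the responses were alike. For the strand ratio the difference was −0.55 (SE 0.15, limma adjusted p = 0.245 over 186 hairpins, of which 1.08% passed).

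The Cdr1as671 mutation was set against WT to ask what depends on that site in Cdr1as. miR-671-5p rose 1.75-fold, a log2 change of 0.81 (SE 0.12, edgeR adjusted p = 0.0125), and had the lowest p of all 665 miRNAs tested. The 3p strand stood at −0.08 (SE 0.14, adjusted p = 0.815). Of the 2 strands 1 was called, against 2.26% of all tested miRNAs (15 miRNAs, or 42 with the replicate number as a block). The added level of the 5p strand was 96.9 CPM, beside 103 CPM in CyrKO. The call was lost without WT library 1 (adjusted p = 0.164), WT library 3 (0.0887) or Cdr1as671 library 1 (0.123), while the log2 change stayed between 0.77 and 0.89. Without Cdr1as671 libraries 1 and 2 together the mutant arm was 1 library, assumed to vary like the WT libraries, and the log2 change was 0.90 (adjusted p = 0.126). The red blood cell miRNAs were low in those 2 libraries, whose 5p levels of 233 and 201 CPM lay on both sides of the 223 CPM of library 3; the part of blood in the result was not tested.

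In Cdr1as671 the ratio of the strands varied more than in any other group, with an SD of 0.307 on the log2 scale. The log2 ratio was 3.32, 3.17 and 3.76 in libraries 1, 2 and 3, all above the WT values, and the 3p strand was lowest in library 3. Its change against WT, 0.89 (SE 0.19), missed the threshold (limma adjusted p = 0.0605 over 172 hairpins, exact permutation p = 0.1). No hairpin passed (0.00%, or 9 hairpins with the replicate block), and 46 had an unadjusted p under 0.05. In the fit of all 12 cerebellum libraries the same change passed (adjusted p = 0.00841), as it did without WT library 2 (0.0319) or Cdr1as671 library 3 (0.029), with at least 100 reads on both strands (0.0141) and with the replicate block (0.0112). It missed the threshold without WT library 1 (0.194), WT library 3 (0.212), Cdr1as671 library 1 (0.11) or Cdr1as671 library 2 (0.171), and with no filter on reads (0.17). With library 3 as the only Cdr1as671 library, assumed to vary like the WT libraries, the change was 1.23 (adjusted p = 0.192).

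In the double mutant miR-671-5p rose 1.97-fold over WT, a log2 change of 0.98 (SE 0.08, edgeR adjusted p = 3.54e-05 over 662 miRNAs). The 3p strand stood at −0.25 (SE 0.11, unadjusted p = 0.0497, adjusted p = 0.26), with all 3 libraries below WT. Of the 2 strands 1 was called, against 2.57% of all tested miRNAs, which were 13 higher and 4 lower, or 10 and 21 on library totals without TMM. With the replicate number as a block 16 miRNAs were higher and 19 lower, and the call of miR-671-5p stood (adjusted p = 9.36e-05). The log2 strand ratio was 3.80, 3.68 and 3.79, all above WT, and its change of 1.23 (SE 0.12, limma adjusted p = 0.000346) passed among 169 hairpins, of which 3.55% passed (6 hairpins, or 32 with the replicate block). As in CyrKO only miR-7b, at 7.12, had a higher change of the ratio, and the lowest that passed were miR-409 at −2.30, miR-411 at −0.79 and miR-187 at −0.76. All comparisons with WT cerebellum share the same 3 WT libraries, so they are not independent of each other.

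**Figure D4:**
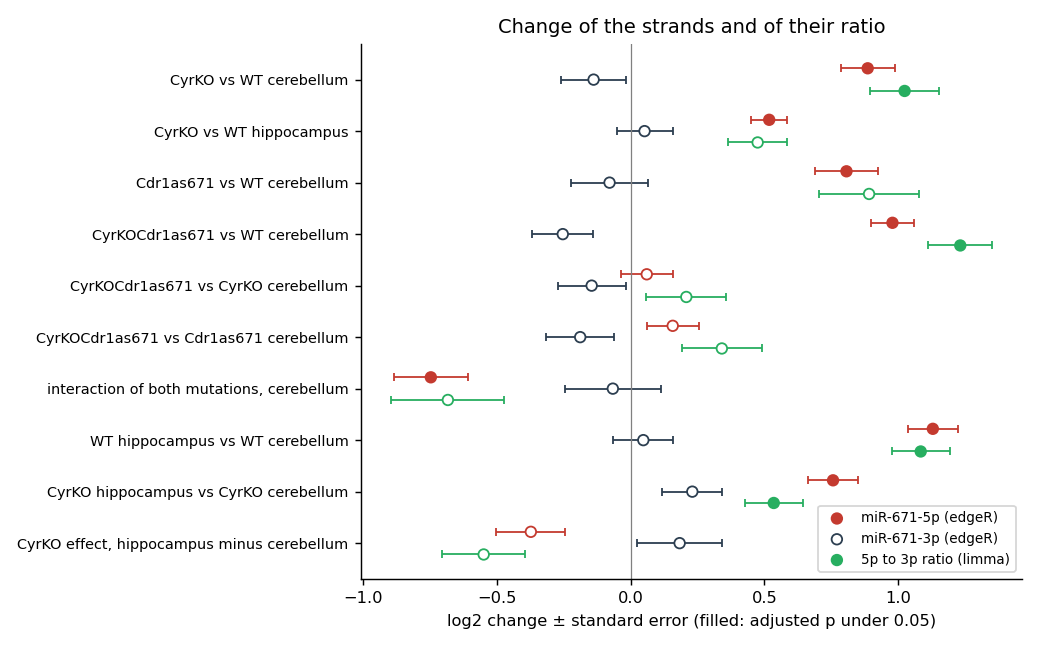
Log2 change (horizontal axis) with standard error of miR-671-5p, miR-671-3p and their ratio in each of the 10 comparisons (vertical axis), filled where the adjusted p is under 0.05. The 5p strand is filled in all 4 comparisons of a mutant with WT, at 0.52 to 0.98, and the 3p strand is open in all 10.

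The second mutation was then tested in mice that already carried the first. Against CyrKO, the 5p strand of the double mutant had a log2 change of 0.06 (SE 0.10, edgeR adjusted p = 0.748) and the 3p strand one of −0.15 (SE 0.13, adjusted p = 0.518). Neither was among the 2.33% of 688 miRNAs called. Log2 plus and minus 1.96 SE runs from −0.13 to 0.25 for the 5p strand. The 0.81 seen for the same mutation against WT lies above this range, but has an error of its own (SE 0.12). The difference between both changes is tested by the interaction below. With each library left out the log2 change of the 5p strand against CyrKO lay between 0.075 and 0.15, and on library totals it was 0.012. The strand ratio was higher by 0.21 (SE 0.15, limma adjusted p = 0.366), and the libraries did not overlap (exact permutation p = 0.1). In that fit 14.0% of 171 hairpins passed (24 hairpins, or 6 with the replicate block).

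Against Cdr1as671, the 5p strand of the double mutant had a log2 change of 0.16 (SE 0.10, edgeR adjusted p = 0.647) and the 3p strand one of −0.19 (SE 0.13, adjusted p = 0.68), and 0.727% of miRNAs were called. The corresponding 5p range is −0.03 to 0.35. The 0.89 of Cyrano loss against WT lies above it, again with an error of its own (SE 0.10), and this difference too is tested by the interaction. The log2 change of the 5p strand against Cdr1as671 was 0.082 without Cdr1as671 library 2, 0.24 without Cdr1as671 library 3 and 0.053 on library totals. The ratio was higher by 0.34 (SE 0.15, limma adjusted p = 0.417, exact permutation p = 0.2), where 1.75% of hairpins passed, and the groups overlapped. Without Cdr1as671 library 3 that change was 0.51 and passed (adjusted p = 0.0228). Without Cdr1as671 libraries 1 and 2 it was −0.0024.

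The interaction asks whether both mutations together gave the change expected from their separate log2 changes. For miR-671-5p they did not, as the double mutant was lower than that sum by 0.75 on the log2 scale (SE 0.14, edgeR adjusted p = 0.043). The call was lost with the replicate number as a block (−0.74, adjusted p = 0.101). Without the block it was the only miRNA called of 688 (0.145%). In CPM, the mean of the double mutant was 227 ± 6.82, against 322 if the additions of both single mutants, 200.1 CPM in all, were summed and 404 if their folds were multiplied. For miR-671-3p the interaction was −0.07 (SE 0.18, adjusted p = 0.978). The interaction of the strand ratio was −0.68 (SE 0.21, unadjusted p = 0.00659, limma adjusted p = 0.563), and no hairpin passed (0.00%, with 8 at an unadjusted p under 0.05).

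The call of the interaction lies near the threshold. It was lost without any 1 of WT libraries 1, 2 and 3 (adjusted p 0.154, 0.154 and 0.162), CyrKO libraries 1, 2 and 3 (0.17, 0.143 and 0.138), Cdr1as671 library 1 (0.301), or double-mutant libraries 1, 2 and 3 (0.0994, 0.266 and 0.173). It held without Cdr1as671 library 2 or 3. The log2 value lay between −0.63 and −0.82 whichever library was left out. Without Cdr1as671 libraries 1 and 2 together it was −0.84 (adjusted p = 0.0456), a value that rests on 1 library of that group, assumed to vary like the other groups.

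**Figure D5:**
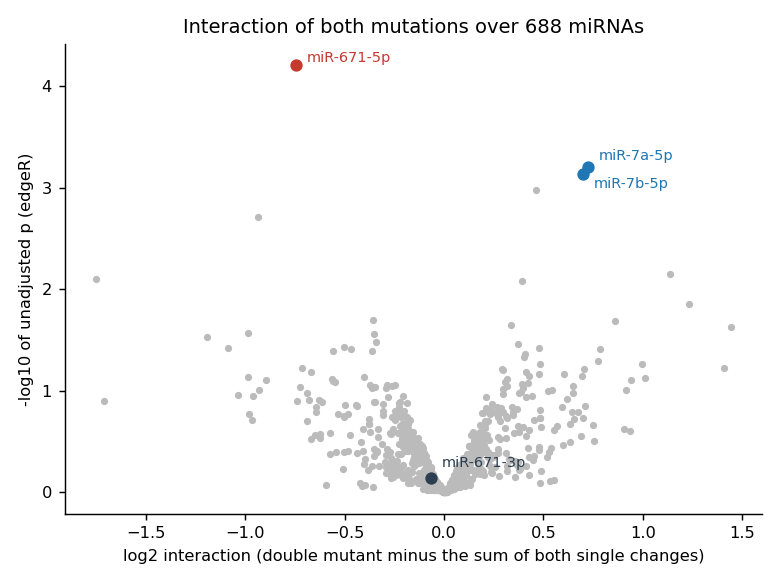
Interaction of both mutations in cerebellum for 688 miRNAs, as the log2 change of the double mutant minus the sum of both single log2 changes (horizontal axis) against −log10 of the unadjusted p from edgeR (vertical axis). miR-671-5p, at −0.75, has the lowest p, miR-7a-5p and miR-7b-5p lie at 0.73 and 0.70, and miR-671-3p lies at −0.07.

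Between tissues, miR-671-5p was higher in hippocampus than in cerebellum in both genotypes. In WT the log2 difference was 1.13 (SE 0.09, edgeR adjusted p = 1.43e-08 over 746 miRNAs) and in CyrKO 0.76 (SE 0.09, adjusted p = 1.67e-06). For miR-671-3p it was 0.05 (SE 0.11, adjusted p = 0.717) in WT and 0.23 (SE 0.11, adjusted p = 0.0764) in CyrKO, a value that passed without WT cerebellum library 2 (adjusted p = 0.0412), WT hippocampus library 1 or 3 (0.0462 and 0.0388) or CyrKO hippocampus library 2 (0.0119). So 1 of 2 strands was called in each genotype, where 70.0% and 72.1% of all miRNAs were called. On library totals without TMM every log2 value is higher by 0.55 in WT and 0.58 in CyrKO. Then the 5p strand differed by 1.68 and 1.33, the 3p strand by 0.60 and 0.81, both strands passed, and the split of WT calls moved from 280 higher and 242 lower to 402 and 126.

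The strand ratio is free of that scaling and also differed between tissues. It was higher in hippocampus by 1.08 (SE 0.11, limma adjusted p = 2.37e-05) in WT, where 32.8% of 186 hairpins passed, and by 0.54 (SE 0.11, adjusted p = 0.00341) in CyrKO, where 35.5% passed. The exact permutation p was 0.1 in each. WT hippocampus, at log2 3.61 ± 0.105, stood next to CyrKO cerebellum at 3.55 ± 0.0253 (SD, n = 3 each).

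Beside miR-671-5p, the other miRNA strands of the Cyrano and Cdr1as network were those of miR-7. Of the 5 strands of miR-7, a miRNA of neurons and endocrine cells, 2 rose in CyrKO cerebellum, in CyrKO hippocampus and in the double mutant against WT, namely miR-7a-5p and miR-7b-5p, where 0.898%, 0.570% and 2.57% of all miRNAs were called. In Cdr1as671, where 2.26% were called, 0 passed (0 at an unadjusted p under 0.05). For these guides, in that order, the log2 changes were 5.34 and 5.56 in CyrKO cerebellum, 2.53 and 2.75 in CyrKO hippocampus, 6.32 and 6.50 in the double mutant, and 0.22 and 0.21 in Cdr1as671. These guides are nearly alike in sequence, so reads may be split uncertainly between them. The median over all 5 strands, 3 of which were not called higher anywhere against WT, was a log2 change of 0.04 in CyrKO cerebellum, −0.06 in CyrKO hippocampus, 0.05 in Cdr1as671 and 0.08 in the double mutant, where miR-7a-1-3p fell. In the interaction miR-7a-5p was at 0.73 (SE 0.17) and miR-7b-5p at 0.70 (SE 0.17), both with an edgeR adjusted p of 0.168, in the direction opposite to miR-671-5p. Of 8 other miRNAs reported as targets of such destruction, 5 were tested (miR-29b-3p, miR-221-3p, miR-222-3p, miR-322-5p and miR-503-5p), and 0 passed by edgeR in any comparison with WT or in the interaction, where 0.145% to 2.57% of all miRNAs passed, so that a count of 0 among 5 does not set them apart. At an unadjusted p under 0.05 there were 0 in CyrKO cerebellum (16 of 668 miRNAs in all), CyrKO hippocampus (27 of 702) and the interaction (27 of 688), 2 in Cdr1as671 (137 of 665) and 3 in the double mutant (127 of 662). Their log2 changes ran from −0.11 to 0.16 in CyrKO cerebellum, −0.11 to 0.26 in CyrKO hippocampus, −0.49 to 0.18 in Cdr1as671 and −0.47 to 0.23 in the double mutant, and miR-671-5p stood at 0.89, 0.52, 0.81 and 0.98. Between tissues all 5 were higher in hippocampus, with a median log2 difference of 1.47 in WT and 1.49 in CyrKO. There 70.0% and 72.1% of all miRNAs were called in either direction, and 280 and 290 of 746 were called higher. Of the 5, miR-221-3p and miR-222-3p were also members of the forebrain-rich list that separated the tissues, so their direction was expected beforehand.

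The strands also differed in which miRNAs followed them most closely, by Pearson's r of log2(CPM + 1) over libraries, among miRNAs averaging at least 10 CPM. Over all 18 libraries miR-671-5p lay nearest to miR-431-5p (r = 0.924), miR-760-3p (0.922) and miR-379-3p (0.917), and miR-671-3p to miR-345-5p (0.976), miR-324-5p (0.972) and miR-346-5p (0.967). The 2 strands had r = 0.733 with each other, place 217 of 440 for the 5p strand. By Spearman's rho over the 18 libraries the nearest to the 5p strand were miR-760-3p (0.922), miR-873a-3p (0.876) and miR-335-3p (0.862). For the 3p strand they were miR-345-5p (0.957), miR-134-3p (0.934) and miR-324-3p (0.93). All values over 18 libraries include the tissue difference. Over the 12 cerebellum libraries the nearest were miR-335-3p (0.832), miR-466i-3p (0.80) and miR-760-3p (0.791) for the 5p strand, and miR-345-5p (0.896), miR-351-5p (0.882) and miR-324-3p (0.874) for the 3p strand. There the strands had r = −0.425 with each other, place 343 of 407. By Spearman's rho this was −0.259, place 279, and the miRNAs nearest to the 5p strand were miR-760-3p (0.839), miR-7a-5p (0.692) and miR-7b-5p (0.636). All points share groups and library totals, so these correlations are descriptions without a test.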

How the data were processed

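Per the labels' protocols, small RNAs of flash-frozen tissue were sequenced after Trizol extraction and size selection. The submitters' processing notes name cutadapt and DESeq2 1.10. Not given in the sources used here are the read assignment, the miRNA annotation and the genome build. Deposited by the authors were 4 tables with whole-number counts per miRNA and library, normalised signal (the deposited count times a factor per library), log2 fold changes with standard errors, and p-values, per the file headers. WT cerebellum counts, identical in 3 tables, entered once.

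Counts were tested with edgeR 4.0.16 in R 4.3.3 (filterByExpr, minimum count 10 and total 15, TMM, robust quasi-likelihood F-test, Benjamini-Hochberg, threshold 0.05). SEs are the log2 change over the square root of F. The 4 comparisons with WT used 6 libraries and the other 6 used 12. CPM is without TMM. Strand ratios, log2 with 0.5 reads added, were tested by limma 3.58.1 over hairpins averaging at least 20 reads on both strands, which needs matching 5p and 3p names (miR-7b but not miR-7a), and for miR-671 by an exact permutation test. The scripts were tested on simulated data. Alternatives were other scalings, filters, DESeq2 1.42.0, the authors' deposited fold changes, a replicate block and leaving out libraries.

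Named were both strands, the miR-7 strands, other reported degradation targets, the 3 miRNAs most like each strand and the 3 hairpins of largest called ratio change in each direction. These members and lists were chosen with earlier results of these data known. miR-30b-5p, miR-30c-5p and miR-27a-3p were not analysed here. The labels do not tie replicate numbers to animals or days. Deviations of same-numbered libraries correlated above 0.1 in every pair in 2 of 8 comparisons (CyrKO against WT cerebellum, 0.127 to 0.534, and double mutant against WT, 0.463 to 0.659), which met the rule for pairing. In CyrKO against WT cerebellum libraries of different numbers also correlated, WT 2 with CyrKO 3 at 0.389 and WT 3 with CyrKO 2 at 0.164. The remaining pairs of different numbers there ran from −0.528 to −0.209. In the double mutant against WT, WT 2 correlated with double mutant 3 at 0.423. All other pairs of different numbers in that comparison were negative, from −0.663 to −0.157. Meeting the rule thus does not show that these libraries were paired. Printed values are still without the block, as planned, with the blocked value where it changes a call or a count by over 1.5 times; the permutation tests are unpaired.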

Additional observations from a re-analysis of the deposited data

Results flagged for a closer look

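In the reported fit the effects of the Cdr1as671 mutation on miR-671-5p differed between mice with and without Cyrano, by a test of that difference. The interaction was −0.747 on the log2 scale (SE 0.14, edgeR adjusted p = 0.043). With the replicate number as a block the call was lost (−0.74, adjusted p = 0.101). It was also lost at a mean of at least 10 CPM and in 10 of 12 fits with 1 library left out. The log2 change of miR-671-5p with the mutation was 0.81 against WT, and 0.06 where Cyrano was lost as well (0.075 to 0.15 with each library left out). Over the alternatives the interaction lay between −0.63 and −0.84, with adjusted p from 0.000446 to 0.301. The labels do not say whether the groups were handled together.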

How the results depend on the processing

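Over 509 values of the tested results under other settings, 473 kept their direction and side of the threshold, 16 lost a call, 12 gained one and 8 changed sign. miR-671-5p in CyrKO against WT (both tissues), in the double mutant against WT and between tissues, and the ratio in CyrKO cerebellum, in the double mutant against WT and between tissues, were called under all alternatives run. Among them the authors' deposited table gave log2 changes of 0.90, 0.52, 0.82 and 0.98 for miR-671-5p in CyrKO cerebellum, CyrKO hippocampus, Cdr1as671 and the double mutant. In CyrKO hippocampus the call of miR-671-5p came near the threshold under some alternatives. The edgeR adjusted p was 0.0474 with the replicate block, and 0.0422 and 0.0448 without CyrKO hippocampus library 2 or 3. The interaction of miR-671-5p was not called at a mean of at least 10 CPM (−0.71, adjusted p = 0.0569) or with the replicate block (−0.74, adjusted p = 0.101), and was −0.82 to −0.63 with each library left out. miR-671-5p in Cdr1as671 was 0.90 without libraries 1 and 2 of that group, an alternative chosen after seeing the data that leaves 1 library, and 0.77 to 0.89 with each library left out. The ratio in Cdr1as671 passed at 0.89 with at least 100 reads, with the replicate block (adjusted p = 0.0112) and in 12 libraries, and was 0.72 to 1.02 with each library left out. The ratio in the double mutant against Cdr1as671 was 0.22 to 0.51 with each library left out and −0.0024 without Cdr1as671 libraries 1 and 2. The block changed no other call.

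miR-671-3p, never called against WT, changed sign in Cdr1as671 (−0.16 to 0.039 with each library left out), in the interaction (−0.11 to 0.075, and 0.19 without Cdr1as671 libraries 1 and 2), in the double mutant against Cdr1as671 (0.062 without those libraries) and between WT tissues (−0.018 at a mean of at least 10 CPM, 0.60 and called on library totals). Between CyrKO tissues it was called on library totals (0.81), and was 0.16 to 0.38 with each library left out, called in 4 of 12. The cause was not tested. Counts of miRNAs called ran from 6 to 7, 4 to 7, 0 to 112 and 6 to 61 over the alternatives for CyrKO cerebellum, CyrKO hippocampus, Cdr1as671 and the double mutant against WT (6, 4, 15 and 17 as reported), from 2 to 34 and 5 to 58 for the double mutant against CyrKO and Cdr1as671 (16 and 5), and from 0 to 19 for the interaction (1). On library totals the calls were 7 higher and 18 lower (7 and 9 with TMM) against CyrKO, and 5 and 3 (5 and 0) against Cdr1as671. For hairpin ratios they ran from 4 to 8, 2 to 5, 0 to 31 and 4 to 32 against WT (5, 2, 0 and 6), and from 0 to 29 and 3 to 12 for the double mutant against CyrKO and Cdr1as671 (24 and 3). CPM levels moved by more than their SD in most groups with TMM or without the 10 most abundant miRNAs. The 147 to 491 reads of miR-671-3p limit the ratio more than the 5p strand does.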
